A study of Homo sapiens with 12 samples.

Results

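Ornithine decarboxylase and the polyamine genes were followed in RNA sequencing of PANC-1 cells, a human pancreatic cancer cell line. The 10 genes were taken by symbol for their place in the pathway: ODC1, its regulators OAZ1, OAZ2 and AZIN1, the synthesis enzymes AMD1, SRM and SMS, and the catabolic enzymes SAT1, SMOX and PAOX. All 10 were found among the 23284 gene symbols listed. ODC1 also gave the degron of the reporter by which the cells were separated.

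The cells carried the retroviral vector pQCXIN-ZsGreen-cODC under G418 selection, which joins the green fluorescent protein ZsGreen to the ODC degron, so that cells with low proteasome activity stay green. Degron (−) cells are the infected line, in which few cells are green, and degron (++) cells are the most ZsGreen-positive part of that line after repeated sorting and culture, so the populations differ in their history as well as in fluorescence. There were 12 libraries, 2 in each of 6 groups: each population without irradiation (0 Gy) at 48 h, with 4 Gy at 30 h and with 4 Gy at 48 h. No library of unirradiated cells at 30 h was analyzed here, and the starting point of the hours is not given in the labels. The libraries taken as degron (−) are ZsGreen-negative by their titles and d+ by their descriptions. Nothing says that replicates came from separate cultures, so the p-values measure the spread between these libraries, which may be technical.

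Levels are FPKM, fragments scaled to transcript length and to the reads mapped, as the authors deposited them. They hold no counts, so the depth behind a value is unknown and no counting interval is given. Differences are on the log2(FPKM + 1) scale, which understates changes of low genes, and were tested with limma over the 12946 genes that reached an FPKM of 1 in 2 or more libraries, at a Benjamini-Hochberg adjusted p under 0.05. Summed over genes, degron (++) libraries held 829654 to 916877 FPKM, of which MIR622 alone made up 28.6% to 30.0%. Degron (−) libraries held 707273 to 763064, with 22.5% to 27.1% in MIR622. Rescaling to an equal sum (TPM) moved the median difference of all genes between the populations from -0.02 to -0.24. All 6 epithelial markers were present in both populations, with a summed FPKM of 7184 to 8369 in degron (++) and 4226 to 5137 in degron (−). Each of the 6 was higher in degron (++) without overlap of libraries. The means were 7.26-fold apart for CDH1, 6.7-fold for KRT7 and 4.91-fold for EPCAM. For KRT18, KRT8 and KRT19 they were 1.51-fold, 1.43-fold and 1.21-fold apart. Among markers of other cells, the immune genes summed to 2.96 to 4.64 and 125 to 166, nearly all of it CD68 in degron (−), with CD3E at 0 and PTPRC near 0 in every library. The 6 fibroblast genes summed to 14.5 to 25.4, mostly LUM, in degron (++) and to 37.2 to 53.9, mostly COL1A1, in degron (−), with COL1A2 and DCN at 0, and 4 endothelial genes stayed at or under 0.556. Whether these markers bear on the results was not tested. In bulk RNA, fewer cells that express a gene and less RNA per cell cannot be told apart.

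Polyamines are small, positively charged molecules that growing cells need for nucleic acid structure, translation and proliferation. Ornithine decarboxylase makes putrescine from ornithine, and spermidine synthase and spermine synthase extend it with aminopropyl groups that come from S-adenosylmethionine after its decarboxylation. Antizymes, whose translation rises with polyamine levels, bind ornithine decarboxylase and bring it to the proteasome without ubiquitin. The reporter holds the C-terminal degron of ornithine decarboxylase, which by the paper's account the proteasome recognizes directly.

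The promoters of ODC1 and SRM are shown because both genes are textbook targets of MYC and MAX, which bind the E-box CACGTG, and because their windows were the only member windows that held it. RefSeq promoters of GRCh38.p14, from 250 bases before to 50 bases after a start, gave 10 windows for 7 of the 10 genes, with none for AZIN1, SMOX and PAOX. Capitals mark CACGTG, which reads the same on both strands.
ODC1, chr2:10447963-10448262, minus strand: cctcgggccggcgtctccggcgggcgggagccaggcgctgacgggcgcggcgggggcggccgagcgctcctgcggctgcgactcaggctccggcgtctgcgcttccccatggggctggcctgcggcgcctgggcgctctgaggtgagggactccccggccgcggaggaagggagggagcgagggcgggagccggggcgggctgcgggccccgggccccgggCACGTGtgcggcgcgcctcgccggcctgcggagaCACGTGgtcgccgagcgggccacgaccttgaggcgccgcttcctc
SRM, chr1:11059969-11060268, minus strand: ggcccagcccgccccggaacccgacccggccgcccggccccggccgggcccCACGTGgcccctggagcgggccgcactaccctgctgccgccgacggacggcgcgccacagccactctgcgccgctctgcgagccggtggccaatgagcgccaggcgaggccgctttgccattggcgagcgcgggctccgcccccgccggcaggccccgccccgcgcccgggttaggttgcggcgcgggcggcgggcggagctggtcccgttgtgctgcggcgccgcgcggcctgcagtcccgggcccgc
The ODC1 window shown held 2 copies, beginning 29 bases before and 5 bases after its start base. The SRM window held 1, beginning 199 bases before its own. The other ODC1 window, chr2:10448278-10448577, belongs to a start further upstream and held none. Which start these cells use was not tested. The same letters stood in 2548 of 35116 windows, or 7.26%, and these windows are rich in G and C, at 80.7% for ODC1 and 82.0% for SRM. The letters TATAAA, on either strand, stood in 11.5% of all windows and, among the members, in OAZ1 alone. No binding was measured in these cells.

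The levels of the 10 genes span a wide range, and the antizyme OAZ1 was the most abundant in every library. In degron (++) cells the order of the median FPKM over 6 libraries was OAZ1 (427), ODC1 (245), SRM (134), SMOX (124), SMS (104), AZIN1 (59.6), AMD1 (44.9), SAT1 (38.0), OAZ2 (23.6) and PAOX (0.652). Neighbours in this order overlapped in range only for SRM with SMOX and for AMD1 with SAT1. In degron (−) cells the order was OAZ1 (461), ODC1 (219), SRM (180), SMS (122), SAT1 (90.8), AMD1 (66.4), OAZ2 (62.3), AZIN1 (60.9), SMOX (45.3) and PAOX (3.92), and AMD1, OAZ2 and AZIN1 overlapped. The oxidase SMOX thus stood in place 4 in degron (++) and place 9 in degron (−), while SAT1 stood in places 8 and 5. Among all gene symbols OAZ1 held place 194 in degron (++) and 157 in degron (−), and ODC1 held places 356 and 370. The plot of FPKM by library shows these levels.

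**Figure D1:**
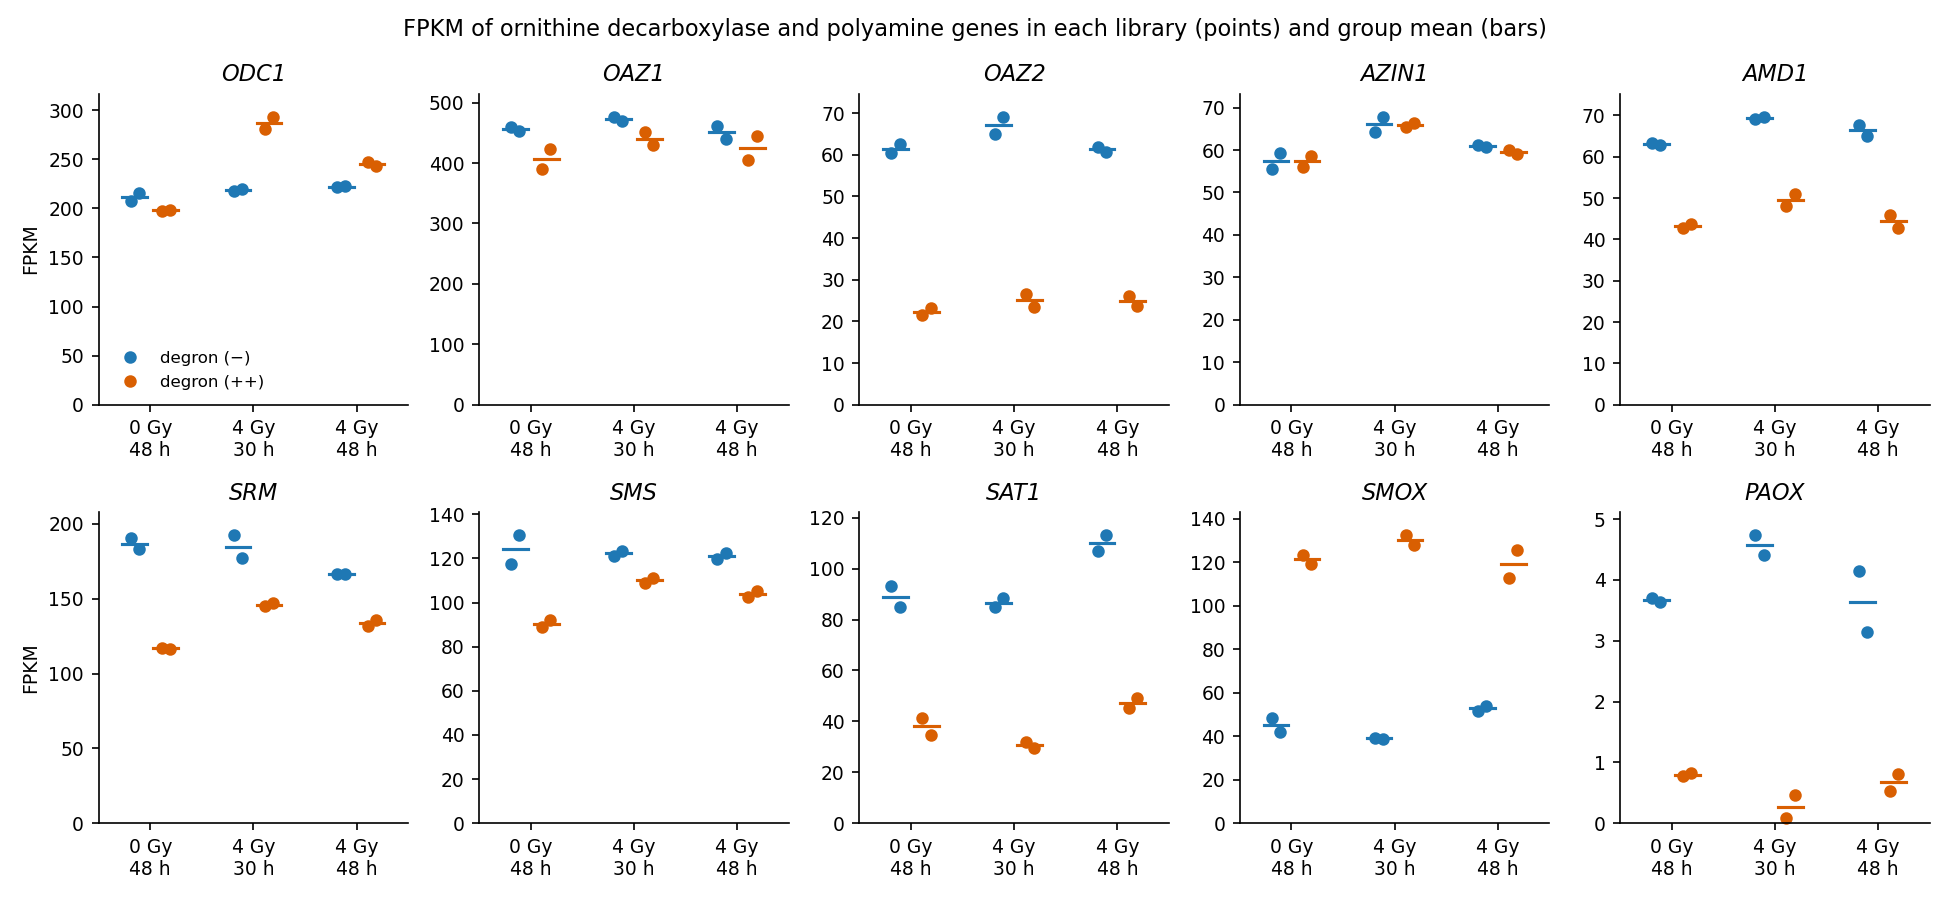
FPKM (y axes, from 0) of the 10 genes in each group (x axes); points are the 12 libraries and bars the means of 2. OAZ2, AMD1, SRM, SMS, SAT1 and PAOX lie lower in all degron (++) libraries (orange) than in all degron (−) libraries (blue), SMOX lies higher, and ODC1, OAZ1 and AZIN1 overlap.

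Between the populations the 10 genes differed in both directions. In unirradiated cells at 48 h, 9 of the 10 genes differed, 1 higher in degron (++) and 8 lower, where 77.7% of all tested genes differed. With 4 Gy, 8 genes differed at 30 h, 2 higher and 6 lower, against 79.1% of all genes, and 8 differed at 48 h, again 2 higher and 6 lower, against 76.7%. Averaged over the 3 conditions in an additive fit, 9 differed, against 85.9% of all genes. Of these, 2 were higher, where 41.7% of all genes were, and 7 were lower, where 44.1% were. Among all genes called in that fit, 48.6% were higher in degron (++), and 34.7% after TPM rescaling (31.7% to 35.9% by condition, against 48.3% to 48.5%). The libraries of the populations did not overlap for 7 of the 10 genes, against 71.3% of all tested genes. The total share called and the share without overlap were near those of all genes, while by direction fewer of the 10 were higher and more were lower. PAOX passed the filter only through degron (−), so it had to differ. The median difference of the 10 was -0.49, -0.24 and -0.26 in the 3 conditions, beside -0.02, -0.02 and -0.01 over all genes.

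ODC1, the rate-limiting enzyme of polyamine synthesis, was the only member that passed the test in opposite directions in different conditions. In degron (++) cells its FPKM was 197 and 198 without irradiation, 281 and 294 at 30 h with 4 Gy, and 247 and 243 at 48 h with 4 Gy. In degron (−) cells it was 208 and 215, 217 and 220, and 221 and 223. The degron (−) libraries therefore lay close together, while the degron (++) libraries were below them without irradiation and above them at both times with 4 Gy. The difference (degron (++) minus degron (−)) was -0.10 ± 0.033 (SE, adjusted p = 0.0241) without irradiation, 0.39 (adjusted p = 3.72e-06) at 30 h and 0.14 (adjusted p = 0.00311) at 48 h with 4 Gy, by limma. The average of 0.15 (adjusted p = 0.0495) hides these opposite signs. The unirradiated call was lost without either degron (++) library or without degron (−) replicate 2 (adjusted p = 0.0683 to 0.143), without a variance trend (adjusted p = 0.0621) and with only the libraries compared (adjusted p = 0.0736). The average lost its call without any 1 of the 8 irradiated libraries (adjusted p = 0.0701 to 0.12), with no filter (0.0677), a filter at FPKM 5 (adjusted p that rounds to 0.05), no variance trend (0.0598), the replicate block (0.0615) and quantile normalization, where it was 0.02 (adjusted p = 0.73). After TPM rescaling the difference was 0.11 (adjusted p = 0.143) at 30 h and -0.12 (adjusted p = 0.11) at 48 h with 4 Gy, where all genes shifted down, and relative to the median of all genes it was 0.38 and 0.13. The reporter mRNA carries the ODC degron, and whether its reads were counted as ODC1 was not tested.

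The antizymes OAZ1 and OAZ2, which both bind and target ornithine decarboxylase, behaved differently. OAZ2 had FPKM of 21.4 and 23.2, 26.5 and 23.5, and 26.1 and 23.7 in degron (++) cells at 0 Gy 48 h, 4 Gy 30 h and 4 Gy 48 h. In degron (−) cells it had 60.3 and 62.5, 65.1 and 69.2, and 62.0 and 60.6. The highest degron (++) library lay well below the lowest degron (−) library, and the mean of degron (++) was 0.380 of that of degron (−). OAZ2 was lower by -1.42, -1.39 and -1.27 in the 3 conditions (SE 0.069 each, adjusted p = 1.12e-07, 1.12e-07 and 2.75e-07), and by -1.36 (adjusted p = 7.69e-11) on average. OAZ1 ranged from 390 to 451 in degron (++) libraries and overlapped with its range of 440 to 477 in degron (−). Its difference was -0.12 ± 0.033 (SE, adjusted p = 0.00545) on average, and -0.37, -0.28 and -0.30 with TPM, an equal sum without MIR622 and quantile normalization. By condition, with FPKM as deposited, it passed only without irradiation, at -0.17 (adjusted p = 0.0217), a call lost without degron (++) replicate 1 or either degron (−) library (adjusted p = 0.056 to 0.154). At 4 Gy and 48 h OAZ1 was at -0.09 (adjusted p = 0.191), and passed without degron (++) replicate 2 (adjusted p = 0.041). With each of the 3 rescalings OAZ1 passed at 4 Gy too, between -0.39 and -0.26 at 30 h (adjusted p = 8.99e-05 to 0.000749) and between -0.35 and -0.28 at 48 h (adjusted p = 0.000202 to 0.000686). Within each library OAZ2 was 0.0532 to 0.0646 of OAZ1 in degron (++) and 0.131 to 0.147 in degron (−), a ratio that no scaling of the library changes.

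AZIN1, an ornithine decarboxylase homolog without enzyme activity that binds antizymes in its place, had overlapping levels in the populations. Degron (++) libraries ranged from 56.1 to 66.4 FPKM, and degron (−) libraries from 55.5 to 67.9. The average difference was -0.01, with a 95% interval from -0.07 to 0.04 (adjusted p = 0.667). After TPM rescaling it was -0.26 (adjusted p = 1.88e-05), and -0.02 relative to the median of all genes. AZIN1 also passed with an equal sum without MIR622, at -0.17 (adjusted p = 0.000448), and with quantile normalization, at -0.09 (adjusted p = 0.0103), which is -0.13 relative to the median of all genes. An antisense gene, AZIN1-AS1, is annotated at this locus and is not listed, and the strand setting of the counting is not given in the sources used here.

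The synthesis enzymes AMD1, SRM and SMS were all lower in degron (++) cells in each condition. AMD1, which decarboxylates S-adenosylmethionine to give the aminopropyl donor, had 42.8 and 43.8, 48.2 and 50.9, and 46.0 and 42.7 in degron (++) against 63.3 and 62.7, 69.1 and 69.7, and 67.7 and 65.1 in degron (−). Its differences of -0.53, -0.48 and -0.57 were of like size (adjusted p = 3.78e-06, 7.01e-06 and 2.54e-06). SRM, spermidine synthase, had 117 and 116, 145 and 147, and 132 and 136 in degron (++) against 190 and 183, 193 and 177, and 166 and 167 in degron (−). No libraries overlapped, and the gap was -0.67 ± 0.042 (SE, adjusted p = 5.51e-07) without irradiation, -0.34 (adjusted p = 5.95e-05) at 30 h and -0.31 (adjusted p = 0.000108) at 48 h with 4 Gy. SMS, spermine synthase, had 88.8 and 92.1, 109 and 111, and 103 and 105 in degron (++) against 118 and 131, 121 and 124, and 120 and 122 in degron (−). The populations did not overlap, although the gap at 30 h was small. SMS differed by -0.45, -0.15 and -0.22 (adjusted p = 2.11e-05, 0.0163 and 0.00258), and the value at 30 h lost its call without degron (++) replicate 1 or degron (−) replicate 2 (adjusted p = 0.0769 and 0.0761). GENCODE v29 annotates 4 processed pseudogenes of AMD1 and 2 of SRM, none listed, so reads shared with these copies leave the values of AMD1 and SRM uncertain. Copies were sought only by names built on a member's symbol, so copies of any member under other names were not covered.

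The catabolic enzymes split in opposite directions. SMOX, the inducible spermine oxidase that returns spermine to spermidine and releases hydrogen peroxide, had 123 and 119, 132 and 128, and 113 and 125 in degron (++) cells against 48.5 and 42.1, 39.3 and 38.7, and 51.6 and 54.1 in degron (−) cells. Every degron (++) library exceeded every degron (−) library, with means 2.70-fold apart. The difference was 1.40 without irradiation, 1.71 at 30 h and 1.16 at 48 h with 4 Gy (SE 0.069 each, adjusted p = 1.24e-07, 3.08e-08 and 4.99e-07). SAT1, which acetylates spermidine and spermine for export or oxidation, had 41.4 and 34.7, 32.0 and 29.6, and 45.4 and 49.1 in degron (++) against 93.2 and 84.8, 84.8 and 88.3, and 107 and 113 in degron (−). All degron (++) libraries lay below all degron (−) libraries, at 0.407 of their mean. SAT1 differed by -1.21, -1.46 and -1.20 (SE 0.085 each, adjusted p = 1.29e-06, 3.17e-07 and 1.48e-06). PAOX, the peroxisomal oxidase of acetylated polyamines, had 0.768 and 0.827, 0.078 and 0.460, and 0.535 and 0.805 in degron (++) against 3.70 and 3.63, 4.74 and 4.42, and 4.14 and 3.14 in degron (−). Every degron (++) library was under an FPKM of 1, and the degron (−) libraries were low too. Its difference was -1.38, -2.15 and -1.47 (adjusted p = 3.29e-05, 1.38e-06 and 2.24e-05), and with a pseudocount of 0.1 in place of 1 it was -2.07, -3.89 and -2.29. Since PAOX passed the filter only through degron (−), these p-values are no support for a difference. In the plot of differences by condition, the 3 intervals of ODC1 are set apart, as are those of SMOX at 30 h and 48 h with 4 Gy. For SRM and SMS the unirradiated interval is set apart from both with 4 Gy, and for PAOX from that at 30 h. The intervals of OAZ1, OAZ2, AZIN1, AMD1 and SAT1 overlap. These intervals are not adjusted for the number of genes tested. As given below, no member passed the interaction by dose, and only ODC1 and SMOX passed that by time.

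**Figure D2:**
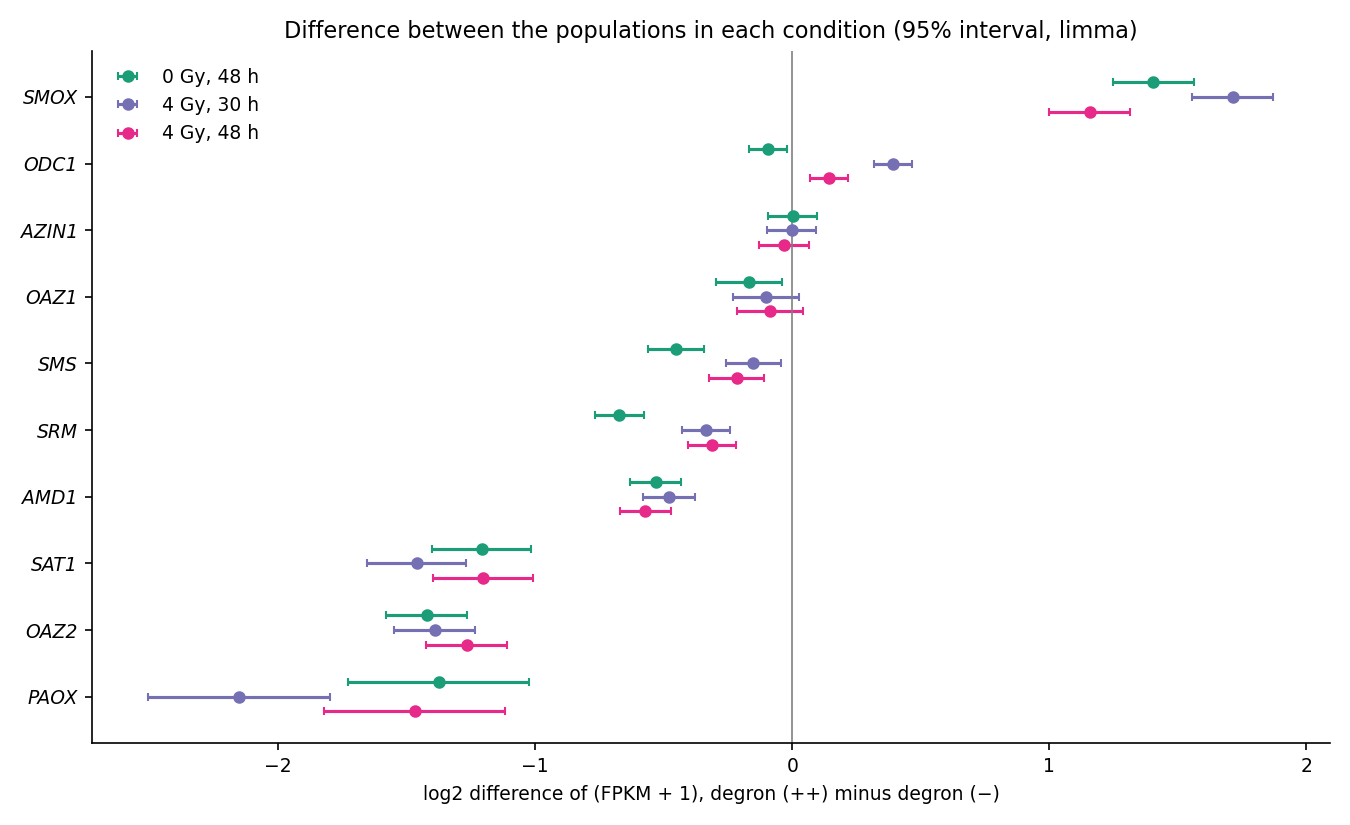
Difference of log2(FPKM + 1), degron (++) minus degron (−) (x axis), for each gene (y axis) in the 3 conditions; points are limma estimates and bars 95% intervals. SMOX lies between 1.16 and 1.71, the synthesis enzymes between -0.67 and -0.15, SAT1, OAZ2 and PAOX at -1.20 or below, AZIN1 between -0.03 and 0.00, and ODC1 on either side of 0.

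Ratios of members within a library do not depend on how libraries are scaled, and are given as values with no test. ODC1 over the sum of the antizymes OAZ1 and OAZ2 ranged from 0.444 to 0.648 in degron (++) libraries, beside 0.399 to 0.445 in degron (−), with group means of 0.462, 0.618 and 0.547 against 0.408, 0.405 and 0.434. Only the lowest degron (++) library, without irradiation, touched the degron (−) range. AZIN1 over the antizymes was 0.126 to 0.146 against 0.107 to 0.126. SAT1 over ODC1, catabolism beside synthesis, ranged from 0.101 to 0.210 in degron (++) libraries, beside 0.390 to 0.508 in degron (−). It was lowest, at 0.108 ± 0.009 (SD, n = 2), in degron (++) at 30 h with 4 Gy. SMS over SRM was 0.750 to 0.790 against 0.618 to 0.734. SMOX over PAOX was 144 to 1698.5 in degron (++) libraries and 8.30 to 17.2 in degron (−). PAOX was under an FPKM of 1 in every degron (++) library, so the size of that ratio is uncertain. The ratios of OAZ2 to OAZ1 and of SAT1 to ODC1 separated the populations most widely in the plot of ratios.

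**Figure D3:**
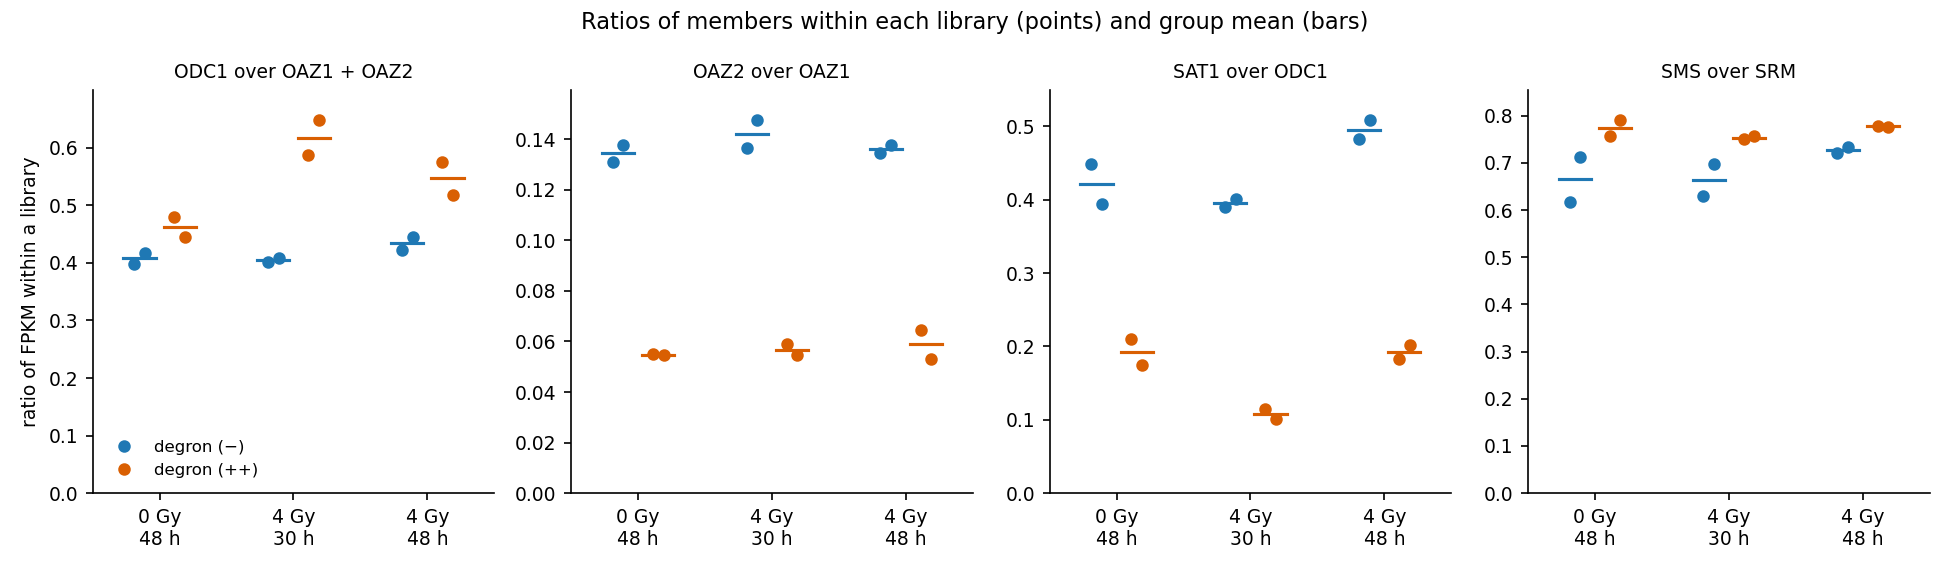
Ratio of FPKM within a library (y axes, from 0) for 4 pairs of members in each group (x axes); points are libraries and bars means of 2. OAZ2 over OAZ1 is at most 0.0646 in degron (++) and at least 0.131 in degron (−), and ODC1 over the antizymes is highest, at 0.648, in a degron (++) library at 30 h with 4 Gy.

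Irradiation was compared with no irradiation at 48 h within each population. In degron (++) cells 1 of the 10 genes differed, against 1.82% of all genes, and it was ODC1. Of all genes called there, 77.97% were higher with 4 Gy, and 59.65% after TPM rescaling. ODC1 rose from 198 ± 0.670 to 245 ± 3.11 (SD, n = 2 each), by 0.31 ± 0.033 (SE, adjusted p = 0.00746), and both irradiated libraries exceeded both others. The call was lost without either irradiated library or without unirradiated replicate 1 (adjusted p = 0.0518 to 0.0807), with TPM rescaling, at 0.24 (adjusted p = 0.141), with an equal sum without MIR622 (adjusted p = 0.0937) and with only the libraries compared (adjusted p = 0.162). SRM (0.20, adjusted p = 0.0571), SMS (0.20, adjusted p = 0.0812) and SAT1 (0.31, adjusted p = 0.114) did not pass. SRM passed without either degron (−) library at 30 h (adjusted p = 0.0495 and 0.0494), and SMS without either unirradiated degron (−) library (adjusted p = 0.0422 and 0.0424), libraries that enter this comparison only through the estimate of the spread. In degron (−) cells none of the 10 passed with limma, against 4.73% of all genes. An unadjusted p under 0.05 was reached by 3 of the 10, beside 2704 of the 12946 tested genes. These 3 were SRM at -0.16, SAT1 at 0.30 and SMOX at 0.22. Their adjusted p-values were 0.0619, 0.0834 and 0.116. SRM passed without either degron (−) library at 30 h (adjusted p = 0.04 and 0.0398), SMOX without unirradiated degron (−) replicate 1 (adjusted p = 0.0499), and SAT1 without either unirradiated degron (++) library, at an adjusted p that rounds to 0.05. ODC1 in degron (−) cells was at 0.07 (95% interval -0.00 to 0.14, adjusted p = 0.269).

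Whether the response to 4 Gy differed between the populations was tested as an interaction. None of the 10 passed with limma, where 0.0772% of all genes did. An unadjusted p under 0.05 was reached by 4 of the 10, beside 1758 of the 12946 tested genes. The interaction was 0.36 for SRM (adjusted p = 0.0783), 0.24 for ODC1 (adjusted p = 0.109), 0.23 for SMS (adjusted p = 0.192) and -0.25 for SMOX (adjusted p = 0.327). The rise of ODC1 in degron (++) cells was therefore not shown to differ from the value in degron (−) cells at 48 h.

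The times of 48 h and 30 h were compared in irradiated cells. In degron (++) cells 2 of the 10 genes differed, against 1.21% of all genes. ODC1 fell by 0.23 (adjusted p = 0.0208), from 287 ± 9.05 to 245 ± 3.11 (SD, n = 2 each), and SAT1 rose by 0.60 ± 0.085 (SE, adjusted p = 0.0197), from 30.8 ± 1.69 to 47.2 ± 2.58. The libraries of the 2 times did not overlap for either gene. Both calls were lost when any 1 of the 4 libraries compared was left out (adjusted p = 0.0566 to 0.143 for ODC1 and 0.0632 to 0.136 for SAT1). In degron (−) cells 2 genes differed, against 7.18% of all genes. SMOX rose by 0.43 ± 0.069 (SE, adjusted p = 0.00841), from 39.0 ± 0.431 to 52.8 ± 1.78, and SAT1 rose by 0.34 (adjusted p = 0.0466), from 86.6 ± 2.47 to 110 ± 4.45. SMOX lost its call without either library at 30 h or without replicate 2 at 48 h (adjusted p = 0.0521 to 0.0772), and SAT1 lost its call in 10 of 12 cases where 1 library was left out (adjusted p = 0.0518 to 0.25). SRM was at -0.15 (adjusted p = 0.0707) in degron (−) cells and passed without replicate 2 at 30 h (adjusted p = 0.0347). SAT1 was the only member to pass in both populations, and its difference between them, 0.26, did not pass (adjusted p = 0.307).

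The change from 30 h to 48 h differed between the populations for 2 of the 10 genes, against 3.23% of all genes. For ODC1 the interaction was -0.25 ± 0.046 (SE, adjusted p = 0.0295), with a fall in degron (++) cells beside 0.02 (95% interval -0.05 to 0.10, adjusted p = 0.748) in degron (−) cells. For SMOX it was -0.56 ± 0.098 (SE, adjusted p = 0.0248), with -0.13 (adjusted p = 0.415) in degron (++) beside the rise in degron (−). The ODC1 interaction lost its call without any 1 of 10 libraries (adjusted p = 0.0548 to 0.109) and under TPM rescaling, at -0.23 (adjusted p = 0.274). The SMOX interaction lost its call without any 1 of 6 of the 8 irradiated libraries (adjusted p = 0.0709 to 0.0924) and held under TPM rescaling, at -0.54 (adjusted p = 0.0252). PAOX moved in opposite directions, at 0.41 in degron (++) and -0.27 in degron (−), with an interaction of 0.68 that did not pass (adjusted p = 0.147). Of the other members, OAZ1, OAZ2, AZIN1 and AMD1 passed in no comparison of dose or time, with values between -0.16 and 0.15 in the plot of dose and time.

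**Figure D4:**
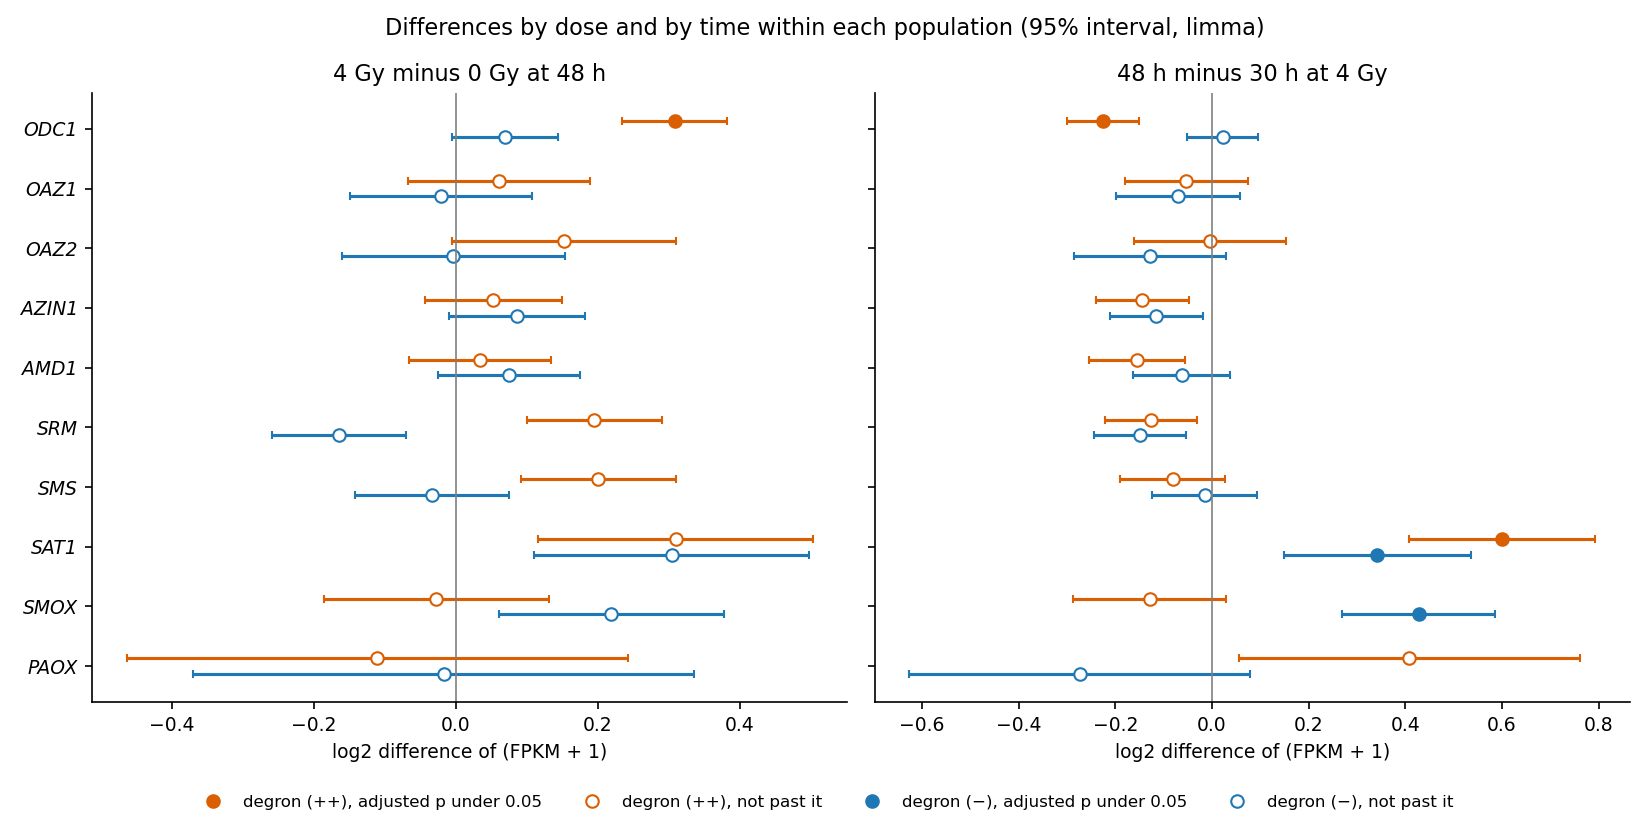
Difference of log2(FPKM + 1) (x axes) for each gene (y axis) between 4 Gy and 0 Gy at 48 h (left) and between 48 h and 30 h at 4 Gy (right); points are limma estimates in degron (++) (orange) and degron (−) (blue), filled where the adjusted p was under 0.05, and bars are 95% intervals. ODC1 in degron (++) is filled at 0.31 on the left and at -0.23 on the right, SAT1 is filled in both populations on the right, and SMOX is filled at 0.43 in degron (−).

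The genes whose level followed that of ODC1 most closely were sought among 12945 tested genes, by Pearson's r over the 12 libraries on the log2(FPKM + 1) scale. These are descriptions with no test, since libraries of a group and of a population share their level. Across all libraries the closest were TNFAIP3 (r = 0.916), CCT4 (0.915), PPME1 (0.915), ATP6V1H (0.913) and LOC730755 (0.910). After each population was centred on its own mean, the closest were ETF1 (0.969), TFRC (0.966), GSPT1 (0.964), EEF1A2 (0.948) and C1orf135 (0.946), so the choice depends on the centring. Of the members, SMS came closest in the centred values, with r = 0.909 and place 30 of all genes, followed by SRM (0.766), AMD1 (0.749) and AZIN1 (0.701). SAT1 (-0.30) and PAOX (-0.63) ran the other way. Without centring, the r of SMS was 0.11, of SRM -0.06 and of AMD1 -0.22.

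Genes next to each member were compared with it, using the gene order of RefSeq on GRCh38.p14 and up to 12 tested genes on each side. ODC1 on chromosome 2, at 0.15 on average, lay above 19 of its 24 neighbours, whose median was -0.29. OAZ2 on chromosome 15, at -1.36, lay above 2 of 24, with a median of -0.18. SAT1 on the X chromosome, at -1.29, also lay above 2 of 24, with a median of -0.27. SMS, at -0.27, shares 20 of those neighbours. It lay above 14 of its own 24, whose median was -0.56. AMD1 on chromosome 6 had lower neighbours still. Their median was -1.04, 18 of 24 were lower in degron (++) at an adjusted p under 0.05, and AMD1 at -0.53 lay above 18 of them. The run from USP45 to TRAF3IP2 that holds AMD1 had 37 tested genes, of which 35 were lower and 0 higher (limma), with a median of -1.05. That run was chosen with results of these data known, and is a description. SMOX on chromosome 20, at 1.43, lay above 23 of 24 neighbours, of which 20 were higher, with a median of 0.45. PAOX on chromosome 10 had 14 tested neighbours, 12 lower and 1 higher, with a median of -0.82. The neighbours of AZIN1 on chromosome 8 had a median of 0.50, beside its own -0.01. For OAZ1 and SRM the medians were -0.07 and -0.33, near their own -0.12 and -0.44. The plot of neighbouring genes places each member among them.

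**Figure D5:**
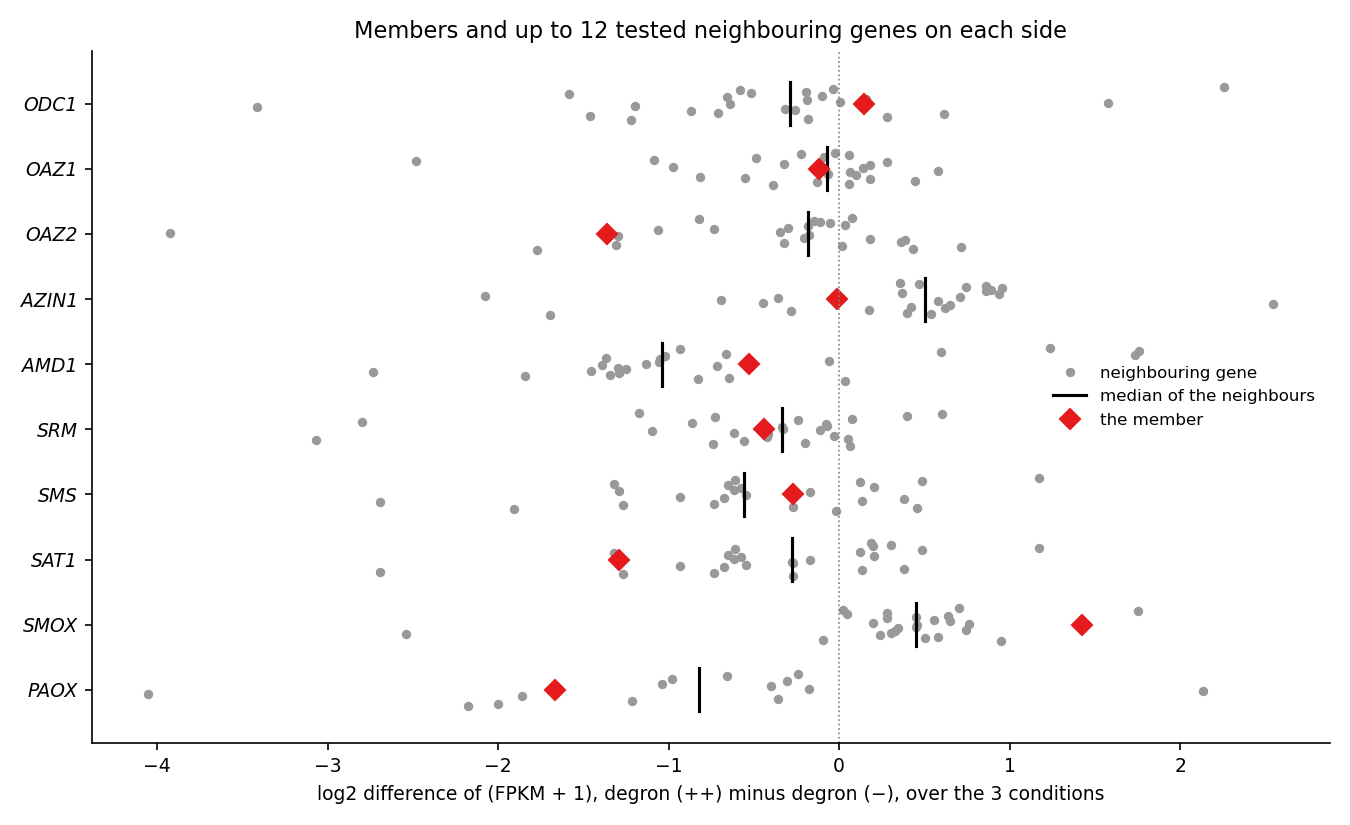
Average difference of log2(FPKM + 1), degron (++) minus degron (−) (x axis), for each member (diamonds), for up to 12 tested neighbouring genes on each side (points) and for the median of the neighbours (black bars). OAZ2 and SAT1 lie far below the median of their neighbours and SMOX above it, while AMD1 at -0.53 lies above a median of -1.04.

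Other genes that feed, use or move polyamines were taken from a list of 42, of which 39 were listed and 33 tested. On average over the conditions 17 were higher in degron (++) and 12 lower, beside the 85.9% of all genes that differed, and their median was 0.12 with FPKM, -0.13 with TPM and 0.02 with quantile normalization. Among 9 tested transport genes 6 were higher and 3 lower, and among 8 of the methionine cycle and salvage 5 were higher and 3 lower. Of 6 for ornithine supply 3 were higher and 1 lower, of 5 for hypusine 1 was higher and 2 lower, and of 5 other regulators and paralogs 2 were higher and 3 lower. ASS1, argininosuccinate synthase, had a median FPKM of 42.7 against 6.11 (difference 2.63, adjusted p = 1.46e-10), and the cationic amino acid transporters SLC7A2 and SLC7A1 had 14.6 against 1.56 (2.51) and 53.0 against 26.2 (1.02). SLC3A2, the heavy chain of several amino acid transporters, had 362 against 159 (1.22), and SLC12A8 had 5.93 against 1.28 (1.64). MTAP, which salvages the methylthioadenosine left by SRM and SMS, had 17.5 against 3.92 (1.91, adjusted p = 1.54e-09). Lower were SAT2, a relative of SAT1, with 8.64 against 32.0 (-1.79), and EIF5A2, a substrate of the spermidine-dependent hypusine modification, with 3.56 against 8.73 (-1.13). SLC47A1, a transporter of organic cations, was listed at 0 in all 6 degron (++) libraries and had 4.14 to 6.85 in degron (−). It is counted among the lower genes, but passed the filter only through degron (−). It therefore had to differ, and its call is no support.

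By dose, 2 of the 33 (6.06%) passed in each population, beside 1.82% of all genes in degron (++) and 4.73% in degron (−). By time 1 passed in degron (++) (3.03%, beside 1.21%) and 4 in degron (−) (12.1%, beside 7.18%), and 4 (12.1%, beside 3.23%) passed for the time interaction. With 4 Gy at 48 h, OAT, which converts ornithine to a glutamate semialdehyde, rose by 0.26 (adjusted p = 0.013) and MYC by 0.33 (adjusted p = 0.049) in degron (++) cells, and SLC3A2 by 0.21 (adjusted p = 0.023) and SLC7A2 by 0.36 (adjusted p = 0.0319) in degron (−) cells. With TPM rescaling the 2 calls in degron (++) became 0. MYC had 34.3 ± 1.81 without irradiation and 43.4 ± 3.59 with 4 Gy at 48 h in degron (++), and 59.5 ± 0.958 and 56.0 ± 1.04 in degron (−) (SD, n = 2 each), and was lower in degron (++) on average, by -0.44 (adjusted p = 0.000515), as was OAT, by -0.46. MAX, the partner of MYC, named here after its values were seen, had 32.8 to 40.9 in degron (++) libraries, all above its 19.5 to 24.4 in degron (−), with a difference of 0.80 (adjusted p = 5.36e-08). From 30 h to 48 h SLC3A2 fell by 0.33 (adjusted p = 0.0117) in degron (++) cells. In degron (−) cells SLC3A2 (0.21), MTAP (0.55) and SLC7A2 (0.60) rose, and SLC47A1 fell by 0.50. The change with time differed between the populations for SLC3A2 (-0.54, adjusted p = 0.00453), MTAP (-0.62, adjusted p = 0.018), SLC7A2 (-0.59, adjusted p = 0.0248) and SLC47A1 (0.50, adjusted p = 0.0438), the last of which rests on degron (−) alone and was lost with TPM rescaling.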

How the data were processed

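The deposited values are FPKM per gene symbol, 1 value a library, which the authors made from RNA sequencing reads of 12 libraries. The submitters' processing notes name TopHat2 2.1.1, Bowtie2 2.2.8, SAMtools 0.1.18 and Cuffdiff 2.2.1 with build hg19, and the annotation is not given in the sources used here. FPKM holds no counts, so depth and counting error are unknown, and a few abundant genes can move the values of all others.

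From these values log2(FPKM + 1) was fitted with limma 3.58.1 in R 4.3.3, with the mean of each of 6 groups, moderated variances with a trend, and Benjamini-Hochberg adjustment over 12946 genes with FPKM of 1 or more in 2 or more libraries. The average over conditions came from an additive fit of population and condition. An adjusted p under 0.05 was called. Values were tabulated with Python 3.11.15, pandas 2.3.3 and numpy 2.4.6, and drawn with matplotlib 3.10.9. The code was tested on simulated data.

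Named were the 10 members, other polyamine-related genes past the threshold with populations that did not overlap and a difference of at least 1, or past it by dose, time or interaction (at most 15), and the 5 genes most like ODC1 with and without centring. The members and lists were chosen with earlier results of these data known. Alternatives were a pseudocount of 0.1, no filter (18487 genes), a filter at FPKM 5 (10078 genes), TPM rescaling, an equal sum without MIR622, quantile normalization, no variance trend, a replicate block, only the libraries compared, and each library left out. Gene order and promoters came from RefSeq on GRCh38.p14. The files hold no coordinates, and none were carried between builds.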

Additional observations from a re-analysis of the deposited data

Results flagged for a closer look

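The change from 30 h to 48 h at 4 Gy differed between the populations for ODC1, by -0.25 on the log2(FPKM + 1) scale (degron (++) minus degron (−), limma, adjusted p = 0.0295), and for SMOX, by -0.56 (adjusted p = 0.0248). ODC1 fell with time in degron (++) cells, and SMOX rose with time in degron (−) cells.

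In 2 further cases every library of one population moved the opposite way to every library of the other, while the test of the difference did not pass. SRM was higher with 4 Gy in degron (++) libraries and lower in degron (−) libraries at 48 h, with a difference of 0.36 (adjusted p = 0.0783). PAOX was higher at 48 h than at 30 h in degron (++) libraries and lower in degron (−) libraries, with a difference of 0.68 (adjusted p = 0.147), at degron (++) levels of 0.078 to 0.805 FPKM.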

How the results depend on the processing

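Of 2080 values of the members under an alternative, 1915 kept their sign and side of the threshold, 50 changed sign without passing in either fit, 85 lost and 24 gained the call, and 6 turned in sign. OAZ2, AMD1, SRM, SAT1 and SMOX kept the direction and call between the populations under every alternative run, in 83 values each. PAOX kept its direction in 79 values, since it was not tested with the higher FPKM filter. PAOX passed the main filter only through degron (−), so its calls are no support for a difference. The 6 were AZIN1 at 0 Gy with TPM (-0.21), ODC1 at 4 Gy 48 h with TPM (-0.12), equal sum (-0.053) and quantile normalization (-0.0033), and the ODC1 average with TPM (-0.11) and equal sum (-0.012). With single libraries left out these were -0.04 to 0.05, 0.13 to 0.16 and 0.11 to 0.18. These rescalings lower degron (++) values or align distributions by construction.

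Members called by dose in degron (++) went from 1 to 0 with TPM, equal sum and only the libraries compared (0 to 2 with a library left out), and in degron (−) 0 became 0 to 1 with a library left out. By time in degron (++) they went from 2 to 1 with TPM, equal sum, quantile and no trend and to 0 with only the libraries compared (0 to 2 with a library left out). By time in degron (−) they went from 2 to 1 with no filter, TPM, quantile, no trend and the replicate block, and to 0 with only the libraries compared (0 to 2). For the time interaction they went from 2 to 1 with TPM, equal sum, quantile, no trend and only the libraries compared (0 to 2).

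Other calls by time were lost as follows (limma, adjusted p). ODC1 in degron (++) was lost with TPM (0.176), equal sum (0.129), quantile (0.0518), no trend (0.0594) and only the libraries compared (0.273), and its time interaction with these 5 as well (0.0653 to 0.274). SAT1 in degron (++) and SMOX in degron (−) were lost with only the libraries compared (0.222 and 0.0781). SAT1 in degron (−) was lost with no filter (0.0753), TPM (0.1), quantile (0.0571), no trend (0.0632) and only the libraries compared (0.0864).

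Over all genes, calls by dose in degron (++) went from 236 to 57 (TPM), 55 (equal sum), 149 (quantile), 128 (no trend), 125 (replicate block) and 17 (only the libraries compared), and to 1 to 154 with a library left out. In degron (−) they went from 612 to 341 (TPM), 8 (only the libraries compared) and 115 to 496. By time in degron (++) they went from 156 to 40 (TPM), 56 (equal sum), 78 (no trend), 88 (replicate block), 12 (only the libraries compared) and 15 to 122, and in degron (−) from 930 to 611 (TPM), 7 (only the libraries compared) and 281 to 940. The dose interaction went from 10 to 17 (pseudocount 0.1), 22 (filter at 5), 20 (TPM), 29 (equal sum), 35 (quantile), 2 (replicate block), 6 (only the libraries compared) and 0 to 18. The time interaction went from 418 to 273 (no filter), 225 (TPM), 128 (only the libraries compared) and 67 to 393. Fits on only the libraries compared have fewer samples. Otherwise the cause was not tested.

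The replicate block changed 2 calls of members, the ODC1 average (adjusted p = 0.0615, limma) and SAT1 by time in degron (−) (adjusted p = 0.063). The labels do not say whether replicate numbers pair the libraries, and the main fit did not pair them. The difference between the replicates within a group was correlated with that in each other group. Over 15 pairs of groups this correlation was -0.038 to 0.122, with 2 above 0.1. Depth is unknown, so no limit of detection can be set, and with 2 libraries a group single libraries decide many calls by dose and time.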
